A study of Homo sapiens with 24 samples.

Results

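SAS spheroids that were heated and then irradiated were compared with SAS spheroids that were heated alone, so the comparison asks what radiation added to the RNA of heated tumour cells. The series holds 24 sequenced RNA libraries from spheroids, which are balls of cultured cells, of 2 established squamous carcinoma lines of the head and neck: SAS, from the tongue, and FaDu, from the hypopharynx. Each line has an untreated control, radiation alone (RT), heat alone (HT) and heat with radiation (HT+RT), with 3 replicates of each. The unheated groups (control and RT) were held at 37 °C in place of the heat. The dose was 10 Gy for irradiated SAS spheroids and 7 Gy for irradiated FaDu spheroids. The 6 libraries compared are SAS HT replicates 1 to 3 and SAS HT+RT replicates 1 to 3, chosen because the groups share the heat and differ in the dose. SAS HT spheroids were held at 42.5 °C for 60 min and received no dose. SAS HT+RT spheroids had the same heat and a dose of 10 Gy. Both groups were collected 0.5 h after treatment. According to the study's text irradiation followed directly on the heat, so the time from heating to collection may have been longer in HT+RT by however long irradiation took. How unirradiated HT spheroids were kept meanwhile is not given in the sources used here, and such a delay and the 10 Gy cannot be told apart. The study's text speaks of independent experiments, but the sample labels do not say whether the replicates are separate cultures, so every p-value measures the spread between these samples.

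Heat unfolds proteins, and the heat shock factor that this frees binds heat shock elements in promoters and switches on genes for chaperones. Ionizing radiation breaks DNA and oxidises other molecules, and cells can answer with target genes of p53, with immediate early transcription factors and with feedback inhibitors of kinase and NF-kappaB signalling. Misfolded protein in the endoplasmic reticulum starts the unfolded protein response, which joins other stresses in the integrated stress response through the translation factor eIF2.

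The SAS HT libraries held 18976390, 20811396 and 20399019 counts, and the SAS HT+RT libraries 16123061, 20981315 and 20935069, with a median of 20605207 over the 6. HT+RT replicate 1 was the shallowest, and the depths of the groups overlapped. Mitochondrial transcripts took 2.36%, 1.36% and 1.50% of the counts in HT and 2.05%, 2.20% and 1.70% in HT+RT. HT replicate 1 had the highest share and HT replicates 2 and 3 the lowest, so the groups overlapped in this measure too. Levels are given in CPM, which are counts scaled to each library's total multiplied by its TMM normalization factor. Heating itself could be read in HSPA6 (ENSG00000173110), a chaperone gene that is nearly silent without stress. Its level was 0.795, 0.32 and 0.994 CPM in the untreated controls and 1468, 1821 and 2246 CPM in HT. No gene in these data checks the dose in the same way.

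Without a block, edgeR's quasi-likelihood test altered 0 of 15341 genes (0%) at a log2 fold change beyond 1 in either direction with an adjusted p below 0.05, while 673 genes had an unadjusted p under 0.05, DESeq2 altered 5 and limma-voom 0. No gene passed at adjusted p under 0.05 alone either (0%, edgeR), against 37 by DESeq2 and 0 by limma-voom. Of the genes at unadjusted p under 0.05, 486 were higher with radiation (3.17% of genes tested) and 187 lower (1.22%). The smallest adjusted p by edgeR was 0.0511, shared by UBE2D1 and NOTCH1, and all 19 genes with an adjusted p under 0.1 were higher in HT+RT. All 3 HT+RT libraries lay above all 3 HT libraries for 771 genes (5.03%) and below them for 743 (4.84%). Leaving out 1 library gave 1 altered gene without HT replicate 1 and 0 without any other, and 3 genes at adjusted p under 0.05 without HT replicate 1 and 3 without HT replicate 3.

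Libraries with the same replicate number deviated from their group means together, with a correlation across genes of 0.19, 0.17 and 0.30 for replicates 1, 2 and 3, against -0.17 to -0.021 for libraries with different numbers. Deviations from a group mean cancel out within the group, so positive values for equal numbers by themselves push those for different numbers down. The contrast between them is partly arithmetic. Genes are not independent of one another, so these correlations carry no p-value. A second edgeR fit therefore held the replicate number as a block, which took the biological coefficient of variation from 8.21% to 4.53%. With the block, 7 genes were altered (0.0456%), all of them higher in HT+RT. At adjusted p under 0.05 alone, 127 genes were higher (0.828%) and 12 lower (0.0782%). From here on, a gene is said to have risen or fallen when its adjusted p in the blocked edgeR fit was under 0.05, and every log2 fold change is HT+RT over HT from that fit with its standard error (SE), unless another is named. The changes were small: 103 of the 139 genes had a log2 fold change under 0.5 in size, the median of those that rose was 0.35, and their range was 0.14 to 1.88. Each of the 127 genes was higher in 3 of 3 replicate pairs, and each of the 12 lower in 3 of 3. The fit that called these genes rests on the same pairs, so this agreement follows largely from the selection. Without the block, 129 of the 139 had an unadjusted p under 0.05 and their median adjusted p was 0.606.

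**Figure D1:**
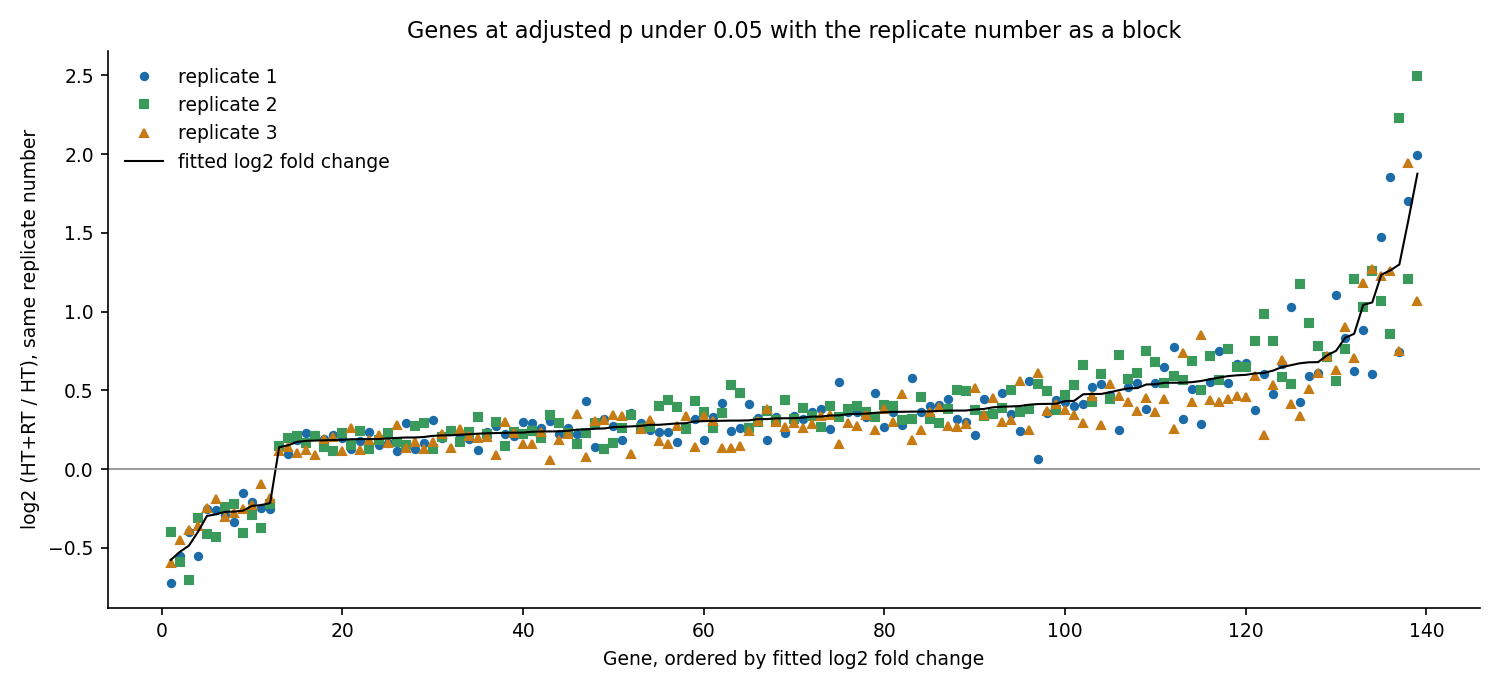
Log2 ratio of HT+RT to HT CPM in each SAS replicate pair (points, y axis) for the 139 genes at adjusted p under 0.05 with the replicate block, ordered along the x axis by the fitted log2 fold change (line). The 12 genes on the left are lower in 3 of 3 pairs and the other 127 are higher in 3 of 3 pairs. The same pairs entered the fit that selected these genes.

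The plot of replicate ratios for the 139 genes shows how far the pairs spread around each fitted value. How many genes passed depended on single replicates: 185 passed without replicate 1, 102 without replicate 2 and 66 without replicate 3. Of the original 139, 107 passed again without replicate 1, 74 without replicate 2 and 64 without replicate 3. In all, 48 genes passed in each of the 3 leave-outs, 28 in 2 of them, 45 in 1 and 18 in none. Genes that passed in each of the 3 leave-outs include UBE2D1, YOD1, NOTCH1, HES1, CHAC1, HERPUD1, ZFAND2A, HSPA6, CHORDC1, SESN2 and PMAIP1.

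The altered genes with the block were MIR17HG, ST3GAL1-DT, MIR25, DLEU2L, CHAC1, FERMT3 and ATF7IP2. MIR17HG (ENSG00000215417), the host transcript of the microRNA cluster miR-17-92, stood at 1.28, 1.57 and 1.98 CPM in HT and 5.12, 8.85 and 4.16 CPM in HT+RT, a log2 fold change of 1.88 ± 0.24 (SE; edgeR adjusted p 0.000584). The groups did not overlap, replicate 2 gave the highest HT+RT value, and the fold change stayed above 1 in each leave-out, between 1.50 and 2.28. In unheated spheroids the same gene was at 2.186, 6.50 and 3.04 CPM in controls and 6.43, 8.42 and 3.60 CPM after radiation, so the lowest 3 of its 12 SAS values were those of HT. FERMT3 (ENSG00000149781), which encodes the integrin activator kindlin-3, was at 8.18, 6.23 and 6.61 CPM in HT and 12.4, 14.9 and 16.0 CPM in HT+RT (1.06 ± 0.13, adjusted p 0.000526). All 3 HT+RT values were above all 3 HT values, although its fold change dropped under 1 without replicate 2 (0.96) and without replicate 3 (0.94). FERMT3 lies next to and partly over TRPT1, and with no strand setting given, reads of the neighbour may be among its counts.

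The other altered genes were scarce. ATF7IP2 (ENSG00000166669), which encodes a partner of a histone methyltransferase, was at 1.71, 1.62 and 1.73 CPM in HT and 3.16, 3.31 and 3.92 CPM in HT+RT (1.04 ± 0.22, adjusted p 0.0306). DLEU2L (ENSG00000116652), a noncoding gene inside an intron of EFCAB7, went from 0.909, 1.96 and 1.37 to 3.29, 3.55 and 3.28 CPM (1.26 ± 0.24, adjusted p 0.0205). MIR25 (ENSG00000207547), a microRNA gene inside MCM7, went from 1.66, 1.42 and 1.98 to 2.78, 6.66 and 3.33 CPM (1.30 ± 0.27, adjusted p 0.0313). Their groups did not overlap, but reads of the enclosing gene cannot be told apart from their own in the cases of DLEU2L and MIR25. ST3GAL1-DT (ENSG00000261220), a divergent transcript of a sialyltransferase gene, was at 0.642, 0.589 and 0.305 CPM in HT and 2.08, 1.36 and 1.18 CPM in HT+RT (1.58 ± 0.35, adjusted p 0.0482). All 4 of these calls depended on single replicates. The fold change of MIR25 dropped to 0.75 without replicate 2 and that of ATF7IP2 to 0.96 without replicate 3, while ST3GAL1-DT stayed between 1.45 and 1.79 and DLEU2L between 1.04 and 1.53. ST3GAL1-DT lost its call without replicate 1, 2 or 3 (adjusted p 0.159, 0.0819 and 0.351), MIR25 without replicate 2 (0.36) or 3 (0.0639), ATF7IP2 without replicate 2 (0.116) or 3 (0.368), and DLEU2L without replicate 1 (0.0547) or 3 (0.215). DESeq2 with the block altered MIR17HG, CHAC1 and FERMT3 and gave no adjusted p for these 4.

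The smallest adjusted p in the blocked fit belonged to UBE2D1 (ENSG00000072401), which encodes a ubiquitin-conjugating enzyme used by many ubiquitin ligases. Its level was 49.6, 60.0 and 60.8 CPM in HT and 81.5, 98.3 and 99.9 CPM in HT+RT. The groups did not overlap and each pair was higher with radiation, giving a log2 fold change of 0.72 ± 0.04 (SE, adjusted p 1.12e-06). Without the block the estimate was the same, 0.72 ± 0.09, with an adjusted p of 0.0511. YOD1 (ENSG00000180667), a deubiquitinase that works with the p97 segregase on misfolded proteins, was at 26.4, 30.2 and 31.5 CPM in HT and 40.2, 52.0 and 48.2 CPM in HT+RT (0.68 ± 0.06, adjusted p 6.1e-05). YOD1 overlaps PFKFB2 in the annotation, which leaves some of its reads uncertain. KLHL25 (ENSG00000183655), an adaptor of a cullin ubiquitin ligase, rose from 30.8, 39.1 and 39.7 to 51.7, 57.9 and 53.4 CPM (0.58 ± 0.06, adjusted p 0.000214), with every HT+RT value above every HT value. By contrast USP24, another deubiquitinase gene, fell by 0.29 on the log2 scale (adjusted p 0.01), a call that was lost without replicate 2 (adjusted p 0.0724).

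**Figure D2:**
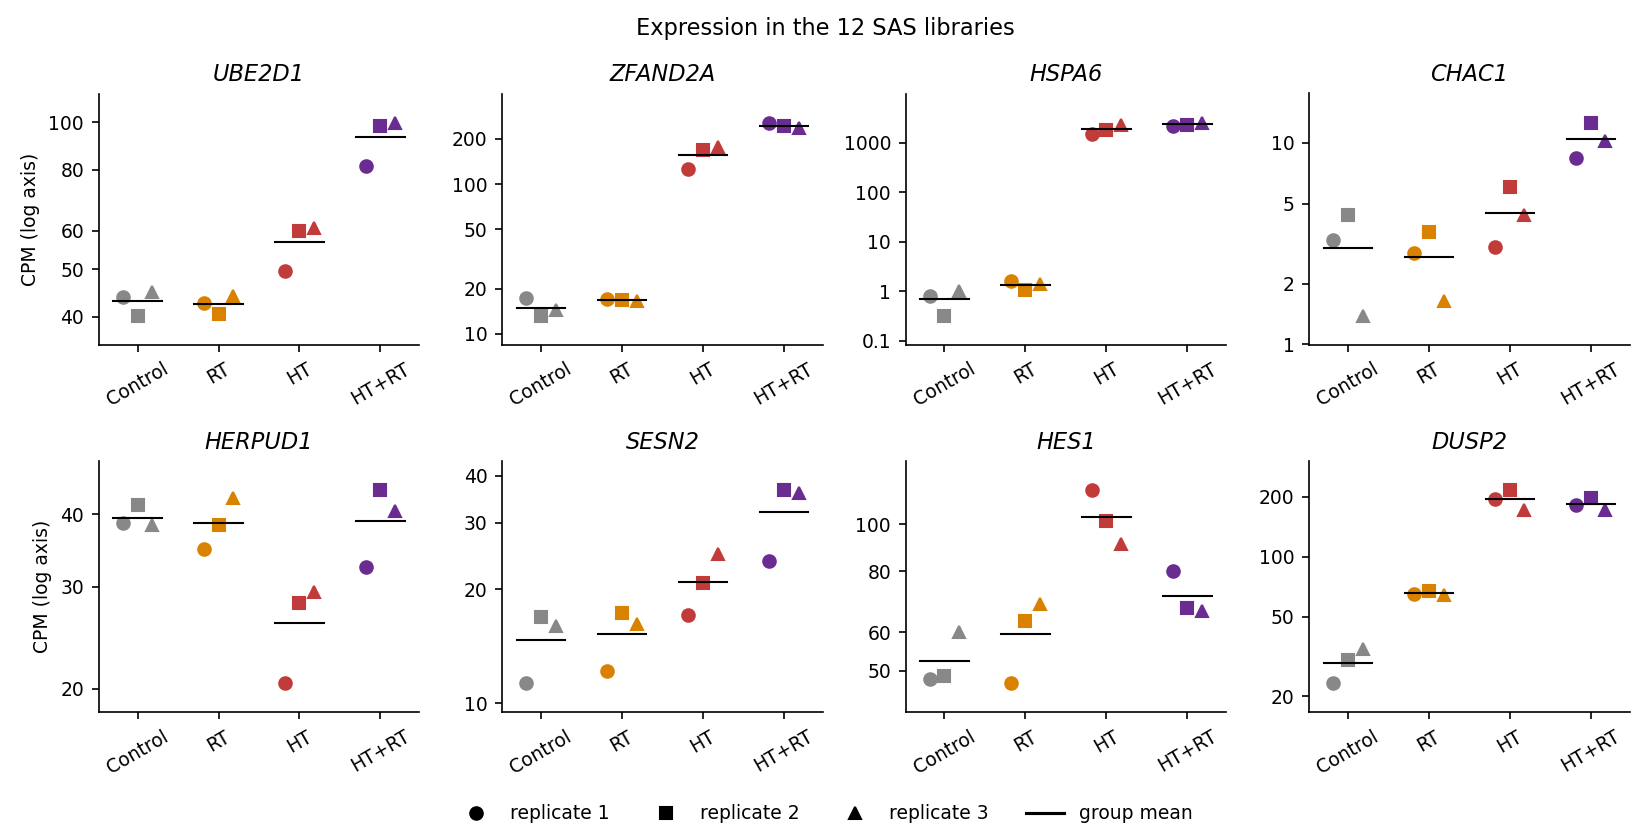
CPM on a log axis of 8 genes in the 12 SAS libraries (points, by replicate) in the control, RT, HT and HT+RT groups, with a line at each group mean. UBE2D1, CHAC1 and HERPUD1 are higher in HT+RT than in HT with no overlap, HES1 is lower with no overlap, and DUSP2 is higher after radiation in unheated spheroids only.

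NOTCH1 (ENSG00000148400), a receptor that is often mutated in squamous carcinoma, and HES1 (ENSG00000114315), a repressor that Notch signalling switches on, moved in opposite directions. NOTCH1 was at 98.4, 104 and 102 CPM in HT and 133, 135 and 136 CPM in HT+RT (0.41 ± 0.04, adjusted p 7.42e-05, and 0.0511 without the block). HES1 was at 118, 101 and 90.8 CPM in HT and 80.2, 67.3 and 66.3 CPM in HT+RT. The HES1 groups did not overlap either, with HT replicate 1 highest, and HES1 fell by 0.53 on the log2 scale (adjusted p 5.3e-05). Among the 14 tested genes of a list of BMP and Notch targets, HES1 alone fell and 0 rose by edgeR with the block, beside 0.0782% of all genes that fell. Without the block 1 was higher and 1 lower at unadjusted p under 0.05, beside 3.17% and 1.22% of all genes. SMAD6, the list member with the smallest unadjusted p among those higher, was scarce at 0.321, 0.245 and 0.305 CPM in HT and 0.632, 0.583 and 0.538 CPM in HT+RT, and did not pass (adjusted p 0.498).

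Genes of the cytoskeleton, of signalling and of the matrix were also among the 10 with the smallest p that rose. RHOB (ENSG00000143878), an early-response small GTPase, was at 36.3, 47.5 and 54.6 CPM in HT and 56.9, 69.5 and 74.3 CPM in HT+RT (0.55 ± 0.05, adjusted p 7.42e-05). RND3 (ENSG00000115963), a GTPase that opposes RhoA, was at 205, 250.1 and 209.9 CPM in HT and 262, 352 and 271 CPM in HT+RT (0.41 ± 0.04, adjusted p 6.1e-05). In both genes the HT+RT values were all above the HT values, but the distance was modest beside the spread between replicates: the adjusted p without the block was 0.421 for RHOB and 0.486 for RND3. SGK1 (ENSG00000118515), a stress-regulated kinase, was at 74.6, 98.9 and 93.9 CPM in HT and 109, 151 and 121 CPM in HT+RT (0.51 ± 0.05, adjusted p 6.21e-05). PLOD2 (ENSG00000152952), a lysyl hydroxylase of collagen, was at 250.3, 258 and 235 CPM in HT and 314, 333 and 298 CPM in HT+RT (0.35 ± 0.03, adjusted p 7.42e-05). Neither gene had overlapping groups. TNFAIP3, KLHL25 and CHAC1 complete these 10 with UBE2D1, YOD1 and NOTCH1.

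In a heat shock response list of 27 genes, all tested, 24 had a log2 fold change above 0 without the block. The other 3 lay below (HSPA1L, HSPB1 and SERPINH1, the last named after its values were seen). The list's median was 0.09, beside 0.00 over all 15341 genes. With the block 7 of the 27 rose (ZFAND2A, HSPA4L, HSPE1, CHORDC1, HSPH1, HSPA6 and HSPD1) and 0 fell, beside 0.828% of all genes that rose. That count ran from 5 to 7 over the leave-outs and from 4 to 11 over the other settings with the block, and the median stayed between 0.05 and 0.14 without the block. ZFAND2A (ENSG00000178381), an arsenite- and heat-induced regulator of the proteasome, was at 126, 168 and 177 CPM in HT and 258, 243 and 235 CPM in HT+RT (0.66 ± 0.08, adjusted p 0.000359). HT replicate 1 was low, and all 3 HT+RT values lay above all 3 HT values. HSPA4L, a co-chaperone gene, was at 109, 111 and 115 CPM in HT and 126, 143 and 164 CPM in HT+RT (0.38 ± 0.05, adjusted p 0.000825), again without overlap. The summed level of the list was 43190, 44310 and 48270 CPM in HT and 48000, 47200 and 49290 CPM in HT+RT, with overlapping groups, though the sum was higher with radiation in 3 of 3 replicate pairs. HSP90AA1 was its most abundant member.

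HSPE1 and HSPD1, which encode mitochondrial chaperones, and HSPH1 changed little in size. HSPE1 was at 324, 347 and 354 CPM in HT and 397, 409.6 and 394 CPM in HT+RT (0.24 ± 0.04, adjusted p 0.00311). HSPH1 was at 3261, 3125 and 3601 CPM in HT and 3712, 3609 and 3866 CPM in HT+RT (0.17 ± 0.03, adjusted p 0.0074). HSPD1, which shares its promoter region with HSPE1 and overlaps it in the antisense direction, was at 2559, 2288 and 2539 CPM in HT and 2733, 2627 and 2791 CPM in HT+RT (0.15 ± 0.03, adjusted p 0.0235). The groups of all 3 genes stood apart, but HSPH1 lost its call without replicate 2 (adjusted p 0.225) or 3 (0.0572), as did HSPD1 (0.359 and 0.335). Among the 20 list members that did not pass, HSPA1A was at 3371, 3663 and 4012 CPM in HT and 4028, 3807 and 4154 CPM in HT+RT (0.13 ± 0.04, adjusted p 0.163), and its near-identical neighbour HSPA1B, whose reads cannot be fully separated from it, had 0.09 ± 0.04 (adjusted p 0.383). DNAJB1 had 0.07 ± 0.03 (adjusted p 0.468), HSPB1 -0.01 ± 0.03 (adjusted p 0.959) and CRYAB 0.06 ± 0.16 (adjusted p 0.938). Their HT and HT+RT values overlapped.

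HSPA6 and CHORDC1, a co-chaperone of HSP90, rose and carry heat shock elements next to their starts. HSPA6 was at 1468, 1821 and 2246 CPM in HT and 2187, 2269 and 2549 CPM in HT+RT (0.36 ± 0.05, adjusted p 0.00134, unadjusted p 0.0124 without the block). HT replicate 3 exceeded HT+RT replicate 1, so the groups overlapped, though each pair was higher with radiation. CHORDC1 (ENSG00000110172) was at 262, 230.4 and 202 CPM in HT and 298, 297 and 263 CPM in HT+RT (0.32 ± 0.04, adjusted p 0.000798), without overlap. The sequences given here run from 250 bases before to 50 bases after the annotated start of transcription in GRCh38.p14 (RefSeq) and are shown because these genes rose and match the heat shock element, written GAANNTTCNNGAA on either strand. Capitals mark the matches, which in CHORDC1 overlap one another. HSPA6 lies on the plus strand at chr1:161524290-161524589 and CHORDC1 on the minus strand at chr11:90223000-90223299.
HSPA6: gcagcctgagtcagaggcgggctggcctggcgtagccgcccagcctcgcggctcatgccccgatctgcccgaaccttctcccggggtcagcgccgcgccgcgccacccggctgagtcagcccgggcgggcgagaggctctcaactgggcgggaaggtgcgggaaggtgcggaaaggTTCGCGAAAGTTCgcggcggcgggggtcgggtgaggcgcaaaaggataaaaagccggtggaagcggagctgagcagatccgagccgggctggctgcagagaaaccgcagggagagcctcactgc
CHORDC1: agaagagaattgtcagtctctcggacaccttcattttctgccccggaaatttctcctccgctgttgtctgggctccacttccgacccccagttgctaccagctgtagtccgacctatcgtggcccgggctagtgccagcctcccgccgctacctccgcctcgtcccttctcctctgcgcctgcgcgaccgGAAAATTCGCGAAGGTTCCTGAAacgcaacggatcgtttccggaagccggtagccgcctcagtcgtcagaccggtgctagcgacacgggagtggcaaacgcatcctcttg

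In a list of 18 genes of the integrated stress and unfolded protein responses, all tested, 5 rose with the block (CHAC1, HERPUD1, DDIT3, XBP1 and HSPA5) and 0 fell, again beside 0.828% of all genes tested that rose. Without the block 12 of the 18 lay above 0 and 6 below. Their median log2 fold change was 0.11, beside 0.00 over all genes, and ran from 0.05 to 0.14 when 1 library was left out. CHAC1 (ENSG00000128965), a glutathione-degrading enzyme induced by ATF4, was at 3.05, 6.03 and 4.37 CPM in HT and 8.46, 12.6 and 10.2 CPM in HT+RT. Every HT+RT value was above every HT value, and the log2 fold change was 1.23 ± 0.13 (adjusted p 0.000194, and 0.112 without the block). HERPUD1 (ENSG00000051108), a membrane component of endoplasmic reticulum degradation, was at 20.4, 28.1 and 29.3 CPM in HT and 32.4, 44.0 and 40.4 CPM in HT+RT (0.60 ± 0.07, adjusted p 0.000238). HT replicate 1 was its lowest value and there was no overlap. Untreated controls held 38.6, 41.5 and 38.3 CPM of HERPUD1, so HT+RT lay at the level of unheated spheroids and HT below it. XBP1, a transcription factor of the unfolded protein response, stood below its control level too: it was at 57.3, 59.6 and 47.5 CPM in controls, 31.3, 42.0 and 35.2 in HT and 42.6, 54.8 and 42.5 in HT+RT (0.37 ± 0.06, adjusted p 0.00384).

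HSPA5, the main chaperone of the endoplasmic reticulum, was at 581, 689.5 and 697 CPM in HT and 713, 765 and 766 CPM in HT+RT (0.20 ± 0.04, adjusted p 0.0144). DDIT3, which encodes the transcription factor CHOP, was at 23.5, 28.2 and 22.9 CPM in HT and 32.03, 35.7 and 29.1 CPM in HT+RT (0.38 ± 0.07, adjusted p 0.0102). All HT+RT values exceeded all HT values in both. HSPA5 lost its call without replicate 1 (adjusted p 0.0581) or 3 (0.11) and DDIT3 without replicate 3 (0.0872), so that 3 of the 18 list members rose without replicate 3. PPP1R15A, which encodes a phosphatase subunit acting on eIF2, did not pass (-0.01 ± 0.04, adjusted p 0.959), nor did ATF3 (0.22 ± 0.06, adjusted p 0.137). CALR, a chaperone of the same compartment, was at 750.0, 754 and 748 CPM in HT and 726, 712 and 715 CPM in HT+RT. Its HT+RT values were the lower ones without overlap, yet it did not pass (-0.06 ± 0.03, adjusted p 0.59). SLC38A2, an amino acid transporter gene under ATF4, rose as well (0.27 ± 0.03, adjusted p 0.000541) and was named because another comparison called it.

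Promoters of 4 of these genes are given for the same reason as those of the chaperones, over the same 300 bases around the start in GRCh38.p14 (RefSeq), and capitals again mark the match. CHAC1 (plus strand, chr15:40953221-40953520) and HERPUD1 (plus strand, chr16:56931892-56932191) match the C/EBP-ATF response element TGATGNAA, which ATF4 can bind. HSPA5 (minus strand, chr9:125241294-125241593) and XBP1 (minus strand, chr22:28800520-28800819) match the endoplasmic reticulum stress element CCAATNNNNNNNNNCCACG. A match describes the sequence, and binding was not measured.
CHAC1: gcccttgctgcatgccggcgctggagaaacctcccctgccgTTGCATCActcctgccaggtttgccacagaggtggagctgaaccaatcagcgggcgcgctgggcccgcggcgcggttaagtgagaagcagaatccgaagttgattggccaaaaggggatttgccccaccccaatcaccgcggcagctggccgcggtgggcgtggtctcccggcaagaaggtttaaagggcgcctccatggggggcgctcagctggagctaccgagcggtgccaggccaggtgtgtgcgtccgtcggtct
HERPUD1: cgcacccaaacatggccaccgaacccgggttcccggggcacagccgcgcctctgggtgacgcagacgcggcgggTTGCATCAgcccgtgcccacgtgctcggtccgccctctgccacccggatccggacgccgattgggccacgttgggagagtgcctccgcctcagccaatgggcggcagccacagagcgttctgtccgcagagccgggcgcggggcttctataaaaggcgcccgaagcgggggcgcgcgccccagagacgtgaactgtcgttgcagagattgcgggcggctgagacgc
HSPA5: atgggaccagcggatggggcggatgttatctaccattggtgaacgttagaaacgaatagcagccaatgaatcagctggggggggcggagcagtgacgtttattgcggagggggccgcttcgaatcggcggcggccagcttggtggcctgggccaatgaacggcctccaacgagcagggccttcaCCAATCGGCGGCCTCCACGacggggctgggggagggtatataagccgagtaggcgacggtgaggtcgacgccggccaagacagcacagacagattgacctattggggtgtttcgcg
XBP1: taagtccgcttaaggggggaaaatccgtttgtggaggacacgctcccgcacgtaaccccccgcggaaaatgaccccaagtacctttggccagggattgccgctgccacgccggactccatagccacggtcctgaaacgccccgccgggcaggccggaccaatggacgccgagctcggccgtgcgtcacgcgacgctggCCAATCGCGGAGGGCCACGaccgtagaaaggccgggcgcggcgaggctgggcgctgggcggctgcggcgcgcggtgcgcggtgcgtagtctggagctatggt

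Target genes of p53 changed in part. Of 28 tested members of a list of 30, 15 lay above 0 without the block and 13 below, with a median log2 fold change of 0.02. With the block 4 rose (PMAIP1, SESN2, PLK2 and GADD45A) and 0 fell, beside the same 0.828%. PMAIP1 (ENSG00000141682), which encodes the death-promoting protein NOXA, was at 61.9, 67.0 and 60.3 CPM in HT and 79.3, 85.4 and 82.2 CPM in HT+RT (0.39 ± 0.05, adjusted p 0.000403), without overlap. SESN2 (ENSG00000130766), a leucine sensor that ATF4 also induces, was at 17.1, 20.9 and 24.8 CPM in HT and 23.8, 36.7 and 36.0 CPM in HT+RT (0.62 ± 0.08, adjusted p 0.000538). The HT value of replicate 3 exceeded the HT+RT value of replicate 1, so these groups overlapped. PLK2 rose from 118, 125 and 114 to 133, 164 and 138 CPM (0.29 ± 0.04, adjusted p 0.00317), a call lost without replicate 3 (adjusted p 0.0624), and GADD45A had 0.37 ± 0.05 (adjusted p 0.00193) with overlapping groups. CDKN1A and MDM2, the usual early readouts of p53, did not pass: CDKN1A was at 159.6, 170.5 and 176 CPM in HT and 166, 178 and 169 CPM in HT+RT (0.03 ± 0.04, adjusted p 0.873). MDM2 was at 57.5, 58.1 and 54.3 CPM in HT and 56.1, 53.5 and 61.1 CPM in HT+RT (0.01 ± 0.06, adjusted p 0.962). The groups overlapped in both. PLK3 (0.24 ± 0.06, adjusted p 0.0822), BTG2 (-0.24 ± 0.10, 0.41), GADD45B (0.18 ± 0.06, 0.285) and PHLDA3 (-0.14 ± 0.05, 0.284) did not pass either.

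Immediate early transcription factors can be induced by serum, stress and radiation within minutes. FOS was at 200.4, 213 and 174 CPM in HT and 196, 148 and 179 CPM in HT+RT (-0.17 ± 0.08, adjusted p 0.486), against 10.4, 11.1 and 26.1 CPM in untreated controls. EGR1 was at 503, 527 and 489 CPM in HT and 548, 533 and 541 CPM in HT+RT (0.10 ± 0.04, adjusted p 0.289). FOS groups overlapped, and EGR1 groups stood apart by a small margin. FOS was above all its controls after heat, whereas EGR1 in HT lay within the range of its controls, 304, 357 and 758 CPM. Of the 29 list members 3 rose with the block (MAFF, CSRNP1 and KLF6) and 0 fell, against 0.828% higher over all genes, and the median without the block was 0.09. MAFF was at 109, 108 and 109 CPM in HT and 137, 135 and 133 CPM in HT+RT, groups far apart for their spread (0.32 ± 0.04, adjusted p 0.000438). CSRNP1 rose from 71.8, 84.4 and 79.5 to 95.6, 101 and 94.0 CPM (0.31 ± 0.05, adjusted p 0.0027). KLF6 had 0.32 ± 0.05 (adjusted p 0.00668) with overlapping groups and lost its call without replicate 3 (adjusted p 0.0797). FOSB (0.23 ± 0.12, adjusted p 0.556) did not pass.

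The promoter of EGR1 is shown because it holds CArG boxes, the sites of serum response factor, and because EGR1 was called higher after radiation in unheated spheroids and was not called in heated ones. The test of that difference did not pass (-0.89 ± 0.22, adjusted p 0.166). The promoter lies on the plus strand at chr5:138465229-138465528 of GRCh38.p14 (RefSeq), from 250 bases before to 50 bases after the start, with the 2 matches in capitals.
EGR1: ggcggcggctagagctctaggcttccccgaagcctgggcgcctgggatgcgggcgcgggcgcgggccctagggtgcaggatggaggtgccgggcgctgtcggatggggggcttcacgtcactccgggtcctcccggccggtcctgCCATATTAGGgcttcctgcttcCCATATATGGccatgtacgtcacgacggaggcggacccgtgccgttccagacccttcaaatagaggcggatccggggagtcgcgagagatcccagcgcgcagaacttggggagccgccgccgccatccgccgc

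TNFAIP3 (ENSG00000118503), a ubiquitin-editing inhibitor of NF-kappaB, was at 48.6, 52.0 and 43.7 CPM in HT and 69.8, 69.8 and 60.4 CPM in HT+RT (0.48 ± 0.05, adjusted p 0.000164), with no overlap. NFKBIA, another inhibitor, had 0.28 ± 0.06 (adjusted p 0.0233) and overlapping groups. TNFAIP3 and NFKBIA were the 2 genes that rose among the 19 of the NF-kappaB feedback list (10.5%, beside 0.828% of all genes). The list's median without the block was 0.05, and it ran from -0.08 to 0.19 when 1 library was left out. NFKBIA lost its call without replicate 2 (adjusted p 0.0778) or 3 (0.279). Of 15 MAP kinase feedback genes, DUSP10 alone rose (1 of 15, beside the same 0.828%). The median of these 15 without the block was 0.05, and it ran from -0.03 to 0.09 over the same leave-outs. DUSP10 went from 11.3, 11.5 and 14.7 to 17.2, 22.7 and 17.1 CPM (0.61 ± 0.12, adjusted p 0.0219). Its call was lost without replicate 2 (0.41, adjusted p 0.181). DUSP1 (-0.01 ± 0.04, adjusted p 0.979) and DUSP2 (-0.07 ± 0.04, adjusted p 0.564) did not pass. Among 16 tested chemokines and cytokines 14 lay above 0 without the block, with a median of 0.10. Leaving out 1 library moved that median to between 0.03 and 0.22. EdgeR called 0 of the 16 with the block, and 0 had an unadjusted p under 0.05 without it. Without replicate 1 the blocked fit called 1 member higher, beside 168 of all 15498 genes. CXCL2 was at 0.909, 1.18 and 0.254 CPM in HT and 1.14, 1.604 and 1.03 CPM in HT+RT, and CXCL8 at 5.46, 5.79 and 4.73 CPM in HT and 6.25, 7.39 and 5.04 CPM in HT+RT. Both had overlapping groups and few counts.

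**Figure D3:**
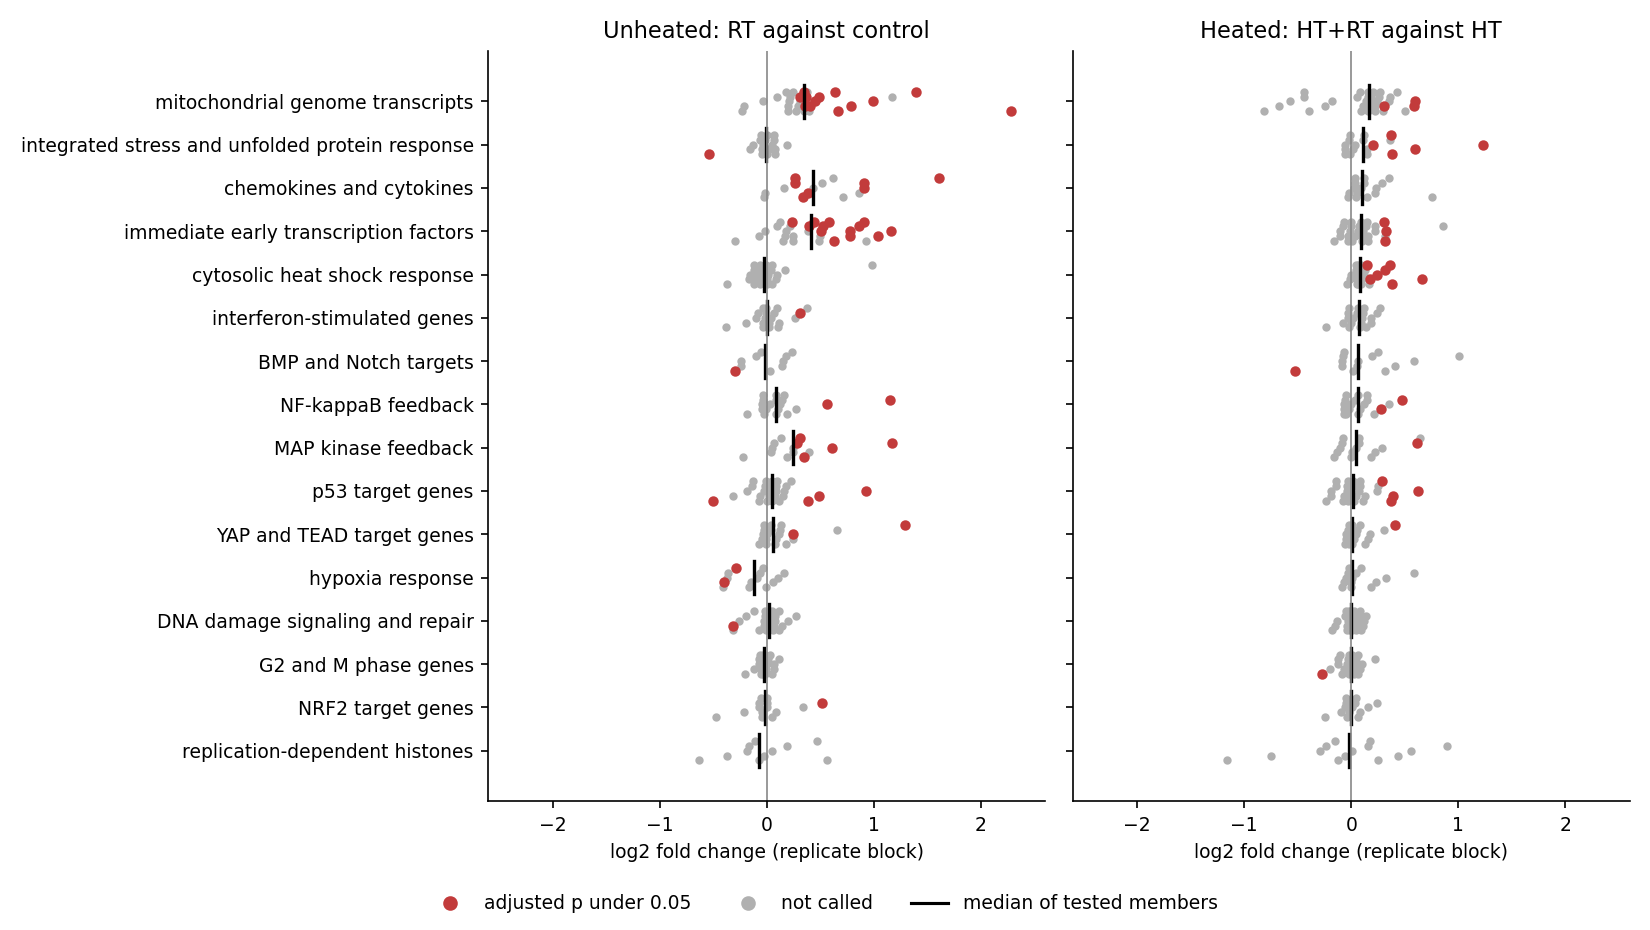
Log2 fold change with radiation (x axis, blocked fits) of the members of 16 gene lists (rows). The left panel shows unheated SAS spheroids (RT over control) and the right panel heated ones (HT+RT over HT). Red points have an adjusted p under 0.05 and bars mark list medians. Red points on the heated and unheated sides number 7 and 0 for heat shock genes. They number 5 and 1 for the unfolded protein response list and 3 and 13 for immediate early genes. The difference between the sides passed for 1, 1 and 3 members of these lists.

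The medians of other lists stood near 0 and are given here from the fit without the block. Of 20 target genes of YAP and TEAD, which respond to cell shape, ANKRD1 alone rose, from 83.4, 92.6 and 55.0 to 123, 121 and 65.4 CPM (0.41 ± 0.05, adjusted p 0.000743), and the list median was 0.00. Over all genes 0.828% rose and 0.0782% fell. The ANKRD1 groups overlapped, with replicate 3 low in both. CCN1 (0.15 ± 0.04, adjusted p 0.0998) and CCN2 (0.31 ± 0.07, adjusted p 0.0666) did not pass, though CCN2 groups stood apart at 37.3, 51.2 and 52.8 CPM in HT and 55.3, 62.1 and 55.8 CPM in HT+RT. Among 29 genes of DNA damage signalling and repair (median 0.00), edgeR with the block called 0, and without it 0 were higher and 1 lower (RNF168) at unadjusted p under 0.05, beside 3.17% higher and 1.22% lower over all genes. Among 24 genes of the G2 and M phases (median 0.00), CCNF alone fell (1 of 24, beside the 0.0782%), by 0.27 on the log2 scale (adjusted p 0.0473), a call lost without replicate 1, 2 or 3 (adjusted p 0.156, 0.0799 and 0.302). EdgeR called 0 of 20 interferon-stimulated genes (median 0.07), 0 of 14 NRF2 targets (-0.01), 0 of 14 hypoxia genes (0.00) and 0 of 14 tested histone genes (0.00) with the block. At unadjusted p under 0.05 without the block, the interferon and NRF2 lists held 0 genes. The hypoxia list held 3 higher and the histone list 1 lower, beside those same shares of 3.17% and 1.22%. The histone median was unsteady: with the block it was -0.02, and it went to -0.17 without replicate 2 and to -0.25 without a filter on low counts. Other medians moved too when 1 library was left out without the block. The interferon median ran from -0.03 to 0.11, the hypoxia median from -0.04 to 0.11 and the YAP and TEAD median from 0.00 to 0.09. Across the lists plotted for heated and unheated spheroids, red points mark the genes that passed.

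Of the 12 genes that fell, HES1 alone passed in each of the 3 leave-outs. The median of the 12 was -0.28. TOB2 (ENSG00000183864), an antiproliferative adaptor of the mRNA deadenylase complex, was at 72.5, 68.5 and 73.1 CPM in HT and 60.7, 51.3 and 61.6 CPM in HT+RT and fell by 0.30 (adjusted p 0.00844). LRIG2, which encodes a membrane protein that modulates growth factor receptors, was at 21.2, 18.3 and 18.1 CPM in HT and 16.1, 11.2 and 13.9 CPM in HT+RT and fell by 0.49 (adjusted p 0.0184). ZNF721, a zinc finger gene, was at 34.3, 26.2 and 28.8 CPM in HT and 23.4, 21.1 and 22.4 CPM in HT+RT and fell by 0.40 (adjusted p 0.0144). None of the 3 had overlapping groups, but TOB2 lost its call without replicate 2 (adjusted p 0.0623), LRIG2 without replicate 2 (0.126) or 3 (0.0818) and ZNF721 without replicate 1 (0.0785) or 3 (0.0878). YEATS2 (-0.26 ± 0.05, adjusted p 0.0113) and CHD7 (-0.23 ± 0.05, 0.0235), both chromatin regulators, lost theirs without replicate 2 (0.0781 and 0.123) or 3 (0.111 and 0.191), and KLF7 (-0.23 ± 0.05, 0.0433) without replicate 2 (0.252). PDGFA (-0.22 ± 0.04, 0.0289), with overlapping groups, lost its call in each leave-out (0.11, 0.104 and 0.13), as did TMCC1, which was named after its values were seen. AC005841.1, which overlaps the chaperone gene FKBP4, had -0.58 ± 0.13 (adjusted p 0.0473) and lost its call without replicate 1 (0.215) or 3 (0.326).

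The 6 largest decreases among genes with separate groups, an unadjusted p under 0.05 and more than minimal expression did not pass. AP4B1-AS1, which overlaps AP4B1, was at 8.99, 4.46 and 4.27 CPM in HT and 3.66, 3.89 and 2.01 CPM in HT+RT (-0.84 ± 0.20, adjusted p 0.0817). MT-TM, a mitochondrial tRNA gene, was at 5.72, 2.99 and 2.44 CPM in HT and 2.27, 2.38 and 1.96 CPM in HT+RT (-0.67 ± 0.23, adjusted p 0.284). HT replicate 1 was high in both genes. CAMK2A was at 3.00, 2.16 and 2.69 CPM in HT and 1.52, 1.65 and 1.52 CPM in HT+RT (-0.72 ± 0.24, adjusted p 0.259), and DEXI (-0.71 ± 0.21, 0.176), TBX2-AS1 (-0.62 ± 0.24, 0.37) and BOC (-0.61 ± 0.24, 0.374) gave differences of like size. The last 4 are scarce transcripts, with few counts behind each value.

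Transcripts of the mitochondrial genome varied between replicates more than between groups. Their summed level was 23950, 13850 and 15590 CPM in HT and 20900, 22450 and 17410 CPM in HT+RT. HT replicate 1 was highest, HT replicates 2 and 3 were lowest, and the groups overlapped. Of 33 tested members, 25 lay above 0 without the block and 8 below, with a median log2 fold change of 0.14, and with the block 3 rose (MT-TC, MT-TY and MT-ND3) and 0 fell at a median of 0.16, beside 0.828% of all genes that rose. The median hung on single libraries: without the block it was 0.36 without HT replicate 1 and -0.02 without HT replicate 2. With the block it was 0.36 without replicate 1, where 17 members and 168 of all 15498 genes tested rose, 0.02 without replicate 2, where 2 members and 97 of all 15382 genes rose, and 0.16 without replicate 3. MT-TC, a tRNA gene, was at 20.9, 23.1 and 23.03 CPM in HT and 33.3, 36.2 and 31.6 CPM in HT+RT (0.60 ± 0.07, adjusted p 0.000403), and its overlapping neighbour MT-TY had 0.59 ± 0.08 (adjusted p 0.00147). Both had separate groups and passed in each leave-out. MT-ND3 (0.31 ± 0.05, adjusted p 0.0102) lost its call without replicate 2 (0.19, adjusted p 0.0512).

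Marker genes described which cells the RNA came from. Epithelial markers summed to 12720, 12910 and 12350 CPM in HT and 12210, 12240 and 11730 CPM in HT+RT. All 3 HT sums were above all 3 HT+RT sums, but 0 of the 12 markers passed by edgeR with the block or had an unadjusted p under 0.05 without it (median -0.07). KRT5 had -0.07 ± 0.03 (adjusted p 0.534), KRT14 -0.09 ± 0.04 (0.527), TP63 -0.10 ± 0.04 (0.428) and EPCAM 0.06 ± 0.04 (0.597). Fibroblast markers summed to 46.4, 34.6 and 42.9 CPM in HT and 40.9, 42.4 and 42.8 CPM in HT+RT. Endothelial markers gave 16.5, 21.0 and 8.95 CPM in HT and 17.6, 21.8 and 10.9 CPM in HT+RT. Leukocyte and blood markers gave 8.29, 7.46 and 6.96 CPM in HT and 10.8, 8.995 and 9.35 CPM in HT+RT. All of these were far under the epithelial sum, and PTPRC, MS4A1, HBB and KDR had a count of 0 in all 6 libraries, which bounds their level without showing that they are absent. CD14 was the leukocyte marker with the most counts, at 6.31, 5.20 and 4.68 CPM in HT and 8.34, 7.49 and 6.85 CPM in HT+RT, and did not pass (adjusted p 0.125). From RNA of whole spheroids, fewer cells of a type and less RNA per cell cannot be told apart.

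The 127 genes that rose spanned less of the genome and were more abundant than genes in general. Their median span in the annotation was 16.1 kb with 5 exons, beside 26.7 kb with 7 exons over all genes tested. Their median transcript was 3.33 kb long, beside 3.28 kb, and 15 of the 127 had a single exon, beside 1486 of all 15341. Their median level was 69.1 CPM, against 17.9 CPM over all genes tested, and 87.4% encoded proteins, against 83.1%. The 12 that fell had a median span of 66.2 kb, 8.5 exons and 65.8 CPM. Genes with more counts are called more easily, and the spans were not compared at equal level.

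Short sequence motifs were counted on both strands of 300 bases around the start, in the 101 of the 127 genes with a promoter in the reference table and, as background, in the 11060 genes tested that have one. The set of 10 motifs was settled after matches had been looked at, so the shares describe these promoters and support nothing further. Heat shock elements were found in 3 of the 101 (2.97%: CHORDC1, HSPA6 and PGAM5) and in 0.325% of the background. Endoplasmic reticulum stress elements were found in 3 of the 101 (2.97%: FICD, HSPA5 and XBP1) and in 0.127% of the background. PGAM5 and FICD, which also rose, were named after their values were seen. The C/EBP-ATF response element was in 6.93% of the 101 and 1.65% of the background, the cyclic AMP response element TGACGTNA in 5.94% and 4.82%, and the AP-1 site TGANTCA in 10.9% and 4.85%. NF-kappaB sites were in 15.8% and 13%, antioxidant elements (TGACNNNGC) in 15.8% and 15.1%, and single p53 decamers, of which a full p53 site takes a pair, in 6.93% and 5.4%. TEAD sites (GGAATG) were in 9.9% of the 101 and 10.8% of the background, and CArG boxes in 0.99% and 1.01%. Within the gene lists, heat shock elements were in 6 of 25 heat shock promoters (24%), endoplasmic reticulum stress elements in 4 of 18 promoters of the stress response list (22.2%), and CArG boxes in 2 of 21 immediate early promoters (9.52%).

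Unheated SAS spheroids had been given the same 10 Gy, in libraries that the heated comparison does not use. There, RT altered 4 of 14680 genes against control without a block (0.0272%), with 1 altered gene without control replicate 1, 1 without control replicate 2 and 0 without RT replicate 2. With the block, 185 genes were higher (1.26%) and 103 lower (0.702%) at adjusted p under 0.05. Of the 127 genes that rose in heated spheroids, 125 were tested in unheated ones: 95 lay above 0, 30 were also called higher and 0 lower, and their median was 0.10. The 30 shared genes were 30 of 127 on the heated side and 30 of 185 on the unheated side. Of the 185, 182 were tested in heated spheroids, where 148 lay above 0 and the median went from 0.38 to 0.12. The 12 that fell in heated spheroids shared 4 genes with the 103 (4 of 12 and 4 of 103). Across 12320 genes with enough counts, Pearson's r between the heated and unheated log2 fold changes without the block was 0.193 and Spearman's rho 0.171. Both are a description only, since genes are not independent replicates.

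**Figure D4:**
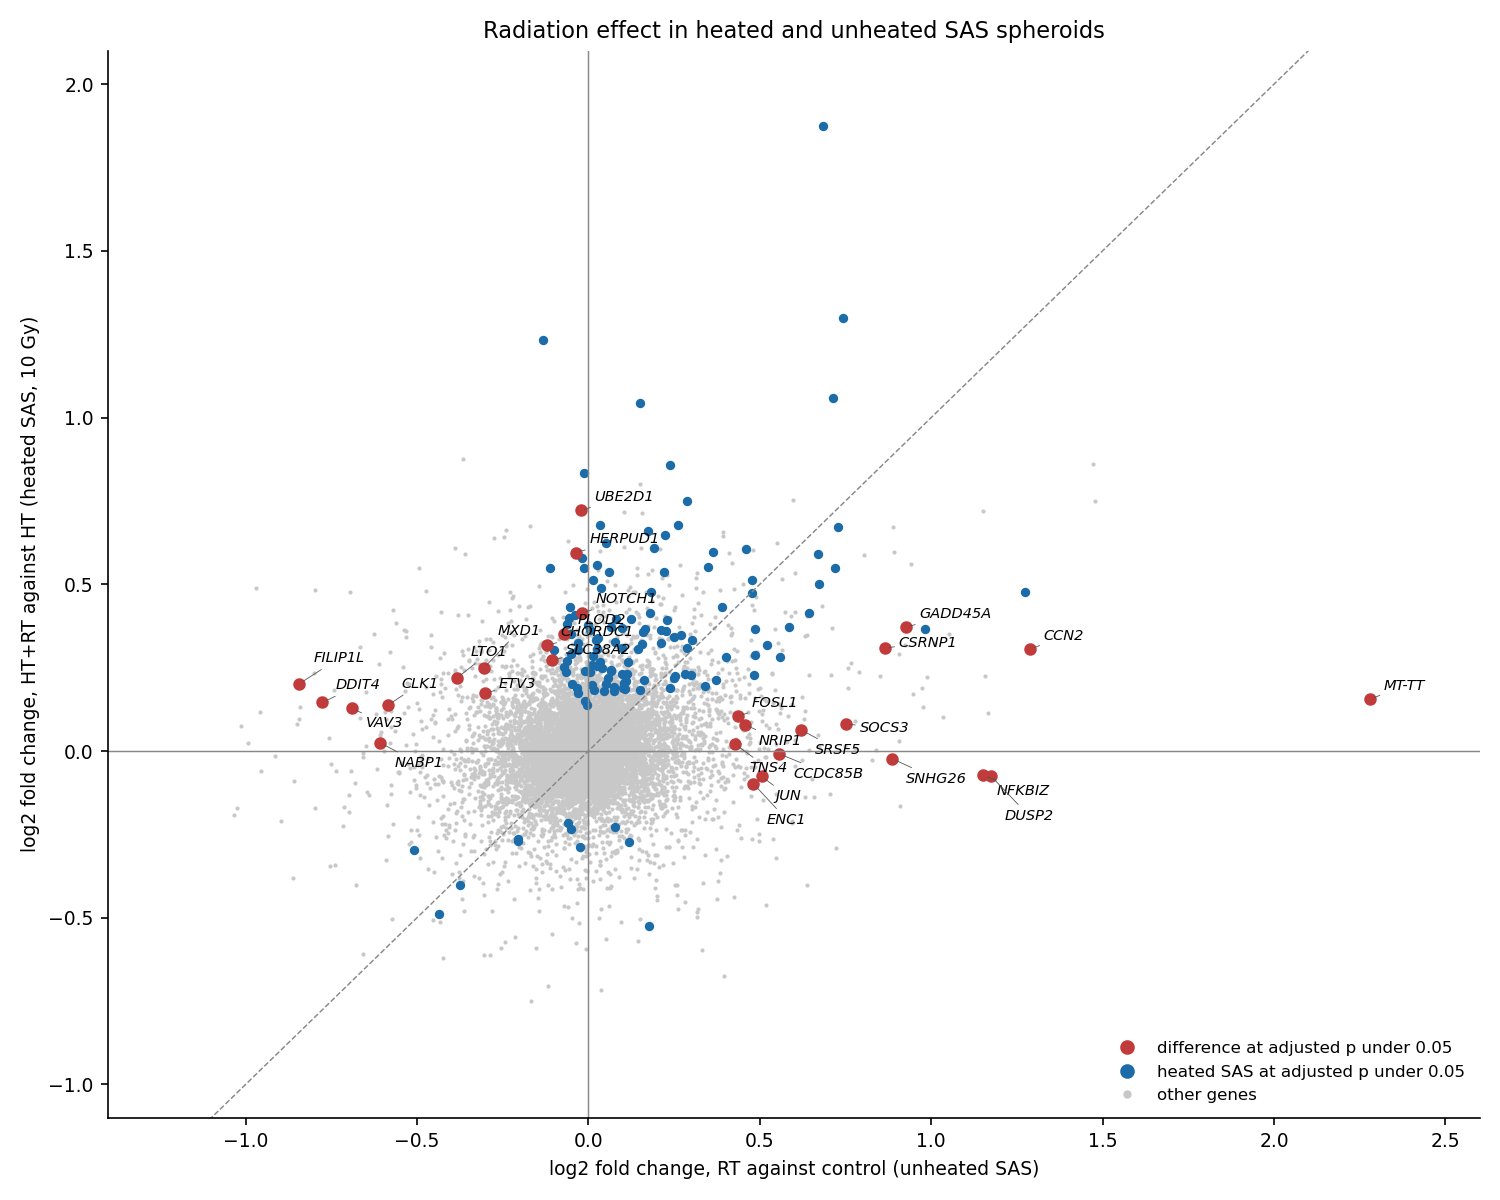
Radiation log2 fold change in heated SAS spheroids (y axis, HT+RT over HT) against unheated ones (x axis, RT over control) from blocked fits for 12320 genes, with equality dashed, blue points at adjusted p under 0.05 in heated spheroids and labelled red points where the difference itself had an adjusted p under 0.05. DUSP2 lies far to the right near 0 on the y axis, and UBE2D1 lies high near 0 on the x axis.

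The difference between the heated and unheated radiation effects was tested directly by an interaction term, and 1 of 15833 genes was altered without a block (0.00632%): DUSP2, with a difference of -1.25 ± 0.15 (SE, adjusted p 0.00998). In each of the 6 leave-outs of a heated library, 1 gene was altered. Unheated libraries were not left out of this test. DUSP2, a nuclear phosphatase of MAP kinases, was at 23.1, 30.2 and 34.5 CPM in controls and 65.4, 67.3 and 64.0 CPM after radiation alone. With heat it was at 196, 216 and 172 CPM without and 181, 198 and 172 CPM with radiation. The unheated groups did not overlap, whereas both heated groups were higher still and overlapped. With the block, the difference was above 0 for 14 genes (0.0884%) and below 0 for 16 (0.101%) at adjusted p under 0.05. Genes outside the naming rule appear in the next paragraphs because these comparisons called them, after their values were seen.

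Among the 14 genes with a difference above 0, UBE2D1, PLOD2, SLC38A2, HERPUD1, CHORDC1 and NOTCH1 rose in heated spheroids and were not called in unheated ones. UBE2D1 was at 44.0, 40.1 and 44.9 CPM in controls and 42.7, 40.4 and 44.1 CPM after RT, overlapping groups with a log2 fold change of -0.02 ± 0.06, and its difference was 0.74 ± 0.10 (adjusted p 0.000869). HERPUD1 differed by 0.63 ± 0.12 (adjusted p 0.0208) and CHORDC1 by 0.43 ± 0.08 (adjusted p 0.0214). Another 7 of the 14 were lower after radiation in unheated spheroids and were not called in heated ones: CLK1, DDIT4, FILIP1L, ETV3, NABP1, LTO1 and VAV3. CLK1, a kinase of splicing factors, was at 33.3, 39.3 and 40.9 CPM in controls, 22.8, 26.7 and 26.2 in RT, 249, 280.3 and 292 in HT and 295, 292 and 311 in HT+RT. RT lay below control and HT+RT above HT, each without overlap though narrowly in the heated groups, and the difference was 0.72 ± 0.08 (adjusted p 6.21e-05). MXD1, the last of the 14, was called in neither state on its own.

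Of the 16 genes with a difference below 0, 15 were higher after radiation in unheated spheroids, and of those only CSRNP1 and GADD45A also rose in heated ones. The others were DUSP2, SOCS3, CCDC85B, CCN2, ENC1, SRSF5, SNHG26, MT-TT, FOSL1, TNS4, JUN, NRIP1 and NFKBIZ. CCN2, a matrix protein and YAP target, was at 6.56, 9.65 and 9.83 CPM in controls and 16.6, 25.4 and 21.8 CPM after RT (1.29 ± 0.10, adjusted p 3.26e-08). Those groups did not overlap, and heat alone stood higher than both. Its difference was -0.98 ± 0.14 (adjusted p 0.00103). SOCS3, a feedback inhibitor of cytokine signalling, was at 35.1, 35.9 and 24.8 CPM in controls, 62.9, 60.0 and 39.3 in RT, 179, 161 and 98.0 in HT and 170.4, 167 and 117 in HT+RT, with a difference of -0.68 ± 0.09 (adjusted p 0.000529). Immediate early genes had a median log2 fold change of 0.41 in unheated spheroids without the block. With the block 13 of 28 tested were called higher there, beside 1.26% of all genes in that comparison. EGR1 rose there from 304, 357 and 758 to 786, 827 and 1099 CPM (1.03 ± 0.09, adjusted p 5.07e-08), but the difference from heated spheroids did not pass (-0.89 ± 0.22, adjusted p 0.166). Nor did that of FOS (-1.06 ± 0.27, adjusted p 0.17). AC121338.2, the remaining gene, overlaps VDR and had about as few counts in HT+RT as can be told from 0.

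Heat shock genes showed no calls with radiation in unheated spheroids. EdgeR called 0 of 25 tested with the block, and their median without the block was -0.02. In the stress response list 0 of 18 were called higher and 1 lower there, beside 0.702% of all genes lower. That list's median without the block was -0.01. CHAC1 was at 3.28, 4.37 and 1.38 CPM in controls and 2.85, 3.62 and 1.64 CPM after RT. These overlapped, and its heated-minus-unheated difference of 1.40 ± 0.32 did not pass (adjusted p 0.107). ZFAND2A (0.49 ± 0.15, adjusted p 0.374), HSPA4L (0.38 ± 0.10, 0.255), SESN2 (0.56 ± 0.12, 0.0668), DDIT3 (0.44 ± 0.10, 0.0866) and HES1 (-0.73 ± 0.16, 0.0726) also did not pass. CHORDC1 and HERPUD1 were the members of these lists whose difference passed.

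FaDu spheroids heated in the same way received 7 Gy instead of 10 Gy, so line and dose cannot be told apart. In FaDu, edgeR altered 0 of 16145 genes without a block (0%), with 361 genes at unadjusted p under 0.05, 2 altered by DESeq2, 3 with the block and 1 without FaDu HT+RT replicate 1. In FaDu the replicate numbers paired less clearly, since HT replicate 3 correlated with HT+RT replicate 2 at 0.31 and replicates 2 of both groups at 0.24. With the block, 115 genes were higher (0.712%) and 39 lower (0.242%) at adjusted p under 0.05. Of the 127 genes that rose in SAS, 122 were tested in FaDu: 103 lay above 0, 32 were called higher, and the median was 0.14. The 32 shared genes were 32 of 127 in SAS and 32 of 115 in FaDu. Of the 12 that fell in SAS, 0 were called lower in FaDu by edgeR with the block. Between log2 fold changes without the block, Pearson's r across 12036 genes was 0.122 and Spearman's rho 0.121, again only a description. CHAC1 was at 5.81, 6.19 and 7.05 CPM in FaDu HT and 10.5, 12.4 and 12.8 CPM in FaDu HT+RT (0.91 ± 0.12, adjusted p 6.75e-05). HERPUD1 was at 29.9, 26.3 and 33.6 CPM in HT and 37.2, 39.6 and 38.8 CPM in HT+RT (0.36 ± 0.07, adjusted p 0.0113). Both genes had separate groups in FaDu as in SAS. In FaDu the heat shock list gave 6 of 27 higher and the stress response list 5 of 18 higher and 1 lower. Immediate early genes gave 13 of 29 higher and 2 lower there, and mitochondrial transcripts 14 of 31 higher. These shares stand beside 0.712% of all genes higher and 0.242% lower in FaDu. In heated SAS the last 2 lists had 3 of 29 and 3 of 33 higher.

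**Figure D5:**
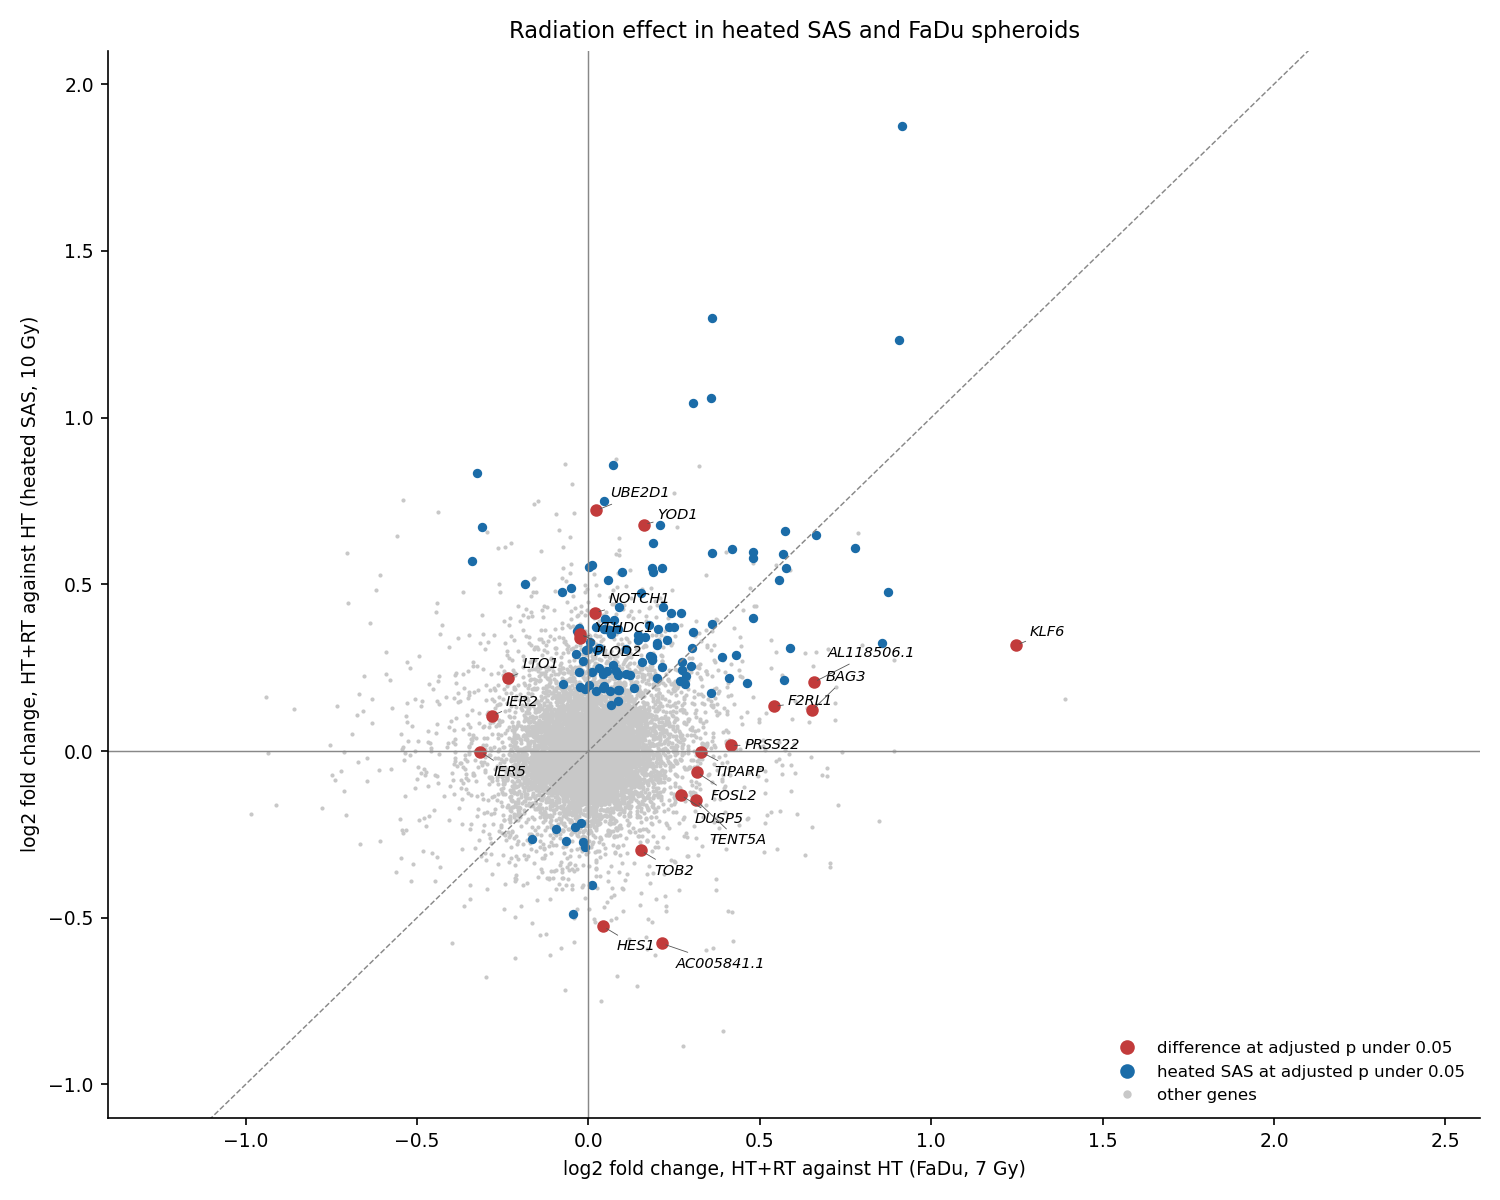
Radiation log2 fold change in heated SAS spheroids (y axis, 10 Gy) against heated FaDu spheroids (x axis, 7 Gy) from blocked fits for 12036 genes, with equality dashed, blue points at adjusted p under 0.05 in SAS and labelled red points where the difference between the lines had an adjusted p under 0.05. UBE2D1 lies high and HES1 low near 0 on the x axis, and KLF6 lies far to the right.

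Tested directly, the difference between SAS and FaDu altered 0 of 17560 genes (0%) by edgeR without a block and 0 by DESeq2, with 509 genes at unadjusted p under 0.05. With the block within each line, 8 genes differed upwards (0.0456%) and 12 downwards (0.0683%) at adjusted p under 0.05. UBE2D1, NOTCH1, PLOD2, YOD1 and YTHDC1 rose in SAS and were not called in FaDu. FaDu UBE2D1 was at 31.96, 36.3 and 36.3 CPM in HT and 33.9, 35.2 and 37.2 CPM in HT+RT, overlapping groups, and the difference between the lines was 0.69 ± 0.08 (adjusted p 4.77e-05). For NOTCH1 it was 0.39 ± 0.06 (adjusted p 0.00441). IER5, LTO1 and IER2 were lower in FaDu and not called in SAS. Of the 12 downward differences, HES1, TOB2 and AC005841.1 fell in SAS only. The other 9 were higher in FaDu: KLF6, DUSP5, TENT5A, BAG3, PRSS22, FOSL2, F2RL1, AL118506.1 and TIPARP. KLF6, a tumour-suppressing zinc finger factor, was at 32.02, 28.2 and 32.1 CPM in FaDu HT and 62.3, 81.4 and 76.4 CPM in FaDu HT+RT (1.25 ± 0.08, adjusted p 4.05e-10). These groups stood apart, unlike those of SAS, and the difference was -0.93 ± 0.10 (adjusted p 4.77e-05). BAG3, a co-chaperone of HSP70, had 0.65 ± 0.06 in FaDu and 0.12 ± 0.03 in SAS, a difference of -0.53 ± 0.09 (adjusted p 0.00466).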

How the data were processed

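RNA of whole spheroids was sequenced, with the NEBNext Ultra II Directional kit on a NovaSeq after RNeasy extraction. The submitters' notes name bcl2fastq and DESeq2; the aligner, the read counter, its strand setting and the annotation are not given in the sources used here. The notes name the mouse build mm9 as the genome, which cannot be right for counts on human Ensembl identifiers, so the build is unknown. The values analysed are the raw counts per gene that the authors deposited, 57500 Ensembl identifiers per table, joined by identifier from the tables that hold the HT and HT+RT libraries, and names came from GENCODE release 29, which lists 56898 of the identifiers and lacks 602. The authors' normalized tables were not used. Control columns repeated between tables were identical in 6 of 6 cases. The 6 per-sample columns that could not be mapped are FaDu control columns, and they were not used. Totals ran from 16123061 to 20981315 counts per library in the 6 heated SAS libraries. Between any 2 replicates of a group the chi-square per gene was at least 3.74, more than repeated sequencing of 1 library would give. The choice of this comparison and the gene lists were made with earlier results of these data known.

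Genes were tested by quasi-likelihood in edgeR 4.0.16 (R 4.3.3) after filterByExpr and TMM scaling, adjusted by Benjamini-Hochberg over all genes tested, first without and then with the replicate number as a block. Altered means a log2 fold change beyond 1 in either direction with an adjusted p below 0.05. The pairing check correlated the deviations of libraries from their group means across genes. Such deviations cancel out within a group, which lowers the values for different numbers when those for equal numbers are positive. Every same-numbered pair had r over 0.1, with 0.19, 0.17 and 0.30 in heated SAS, 0.16, 0.23 and 0.27 in unheated SAS and 0.57, 0.24 and 0.34 in heated FaDu, so the numbers were taken to pair. Libraries with different numbers had r of -0.17 to -0.021 in heated SAS, -0.23 to 0.023 in unheated SAS and -0.46 to 0.31 in heated FaDu, where the highest exceeds 1 of the same-numbered values. Differences between heated and unheated effects, and between lines, were tested as interaction terms. Alternatives were DESeq2 1.42.0, limma-voom (limma 3.58.1), all 4 SAS groups in 1 fit, RLE size factors, a minimum of 10 counts per library, no filter, and leaving out each library, or with the block each replicate. In the test of heated against unheated effects, only heated libraries were left out. The steps were tested on simulated data with known changes.

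The 20 gene lists (434 members, 354 tested) are described by counts and medians, without a set test. Named genes follow a rule giving 111 genes: every altered gene; the 10 per direction with the smallest p in the blocked fit; the 6 highest and 6 lowest fold changes with unadjusted p under 0.05 and groups that do not overlap; of each list, the member with the smallest p per direction and each member called with the block; and a fixed set of stress, p53 and epithelial genes. A further 34 were named because another comparison called them, after their values were seen. CPM values are the deposited counts scaled to each library's total multiplied by its TMM factor. These factors were computed over all SAS libraries and, separately, over the heated FaDu libraries. Promoters came from the GRCh38.p14 RefSeq table.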

Additional observations from a re-analysis of the deposited data

Results flagged for a closer look

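The radiation effect in SAS differed between heated and unheated spheroids in 30 genes, by an interaction term with the replicate number as a block at adjusted p under 0.05 (edgeR). Log2 differences, heated minus unheated, above 0 were FILIP1L 1.06, DDIT4 0.91, VAV3 0.82, UBE2D1 0.74, CLK1 0.72, HERPUD1 0.63, NABP1 0.63, LTO1 0.59, MXD1 0.54, ETV3 0.47, CHORDC1 0.43, NOTCH1 0.43, PLOD2 0.42 and SLC38A2 0.37. Those below 0 were AC121338.2 -3.49, MT-TT -2.14, NFKBIZ -1.27, DUSP2 -1.25, CCN2 -0.98, SNHG26 -0.91, SOCS3 -0.68, ENC1 -0.58, JUN -0.58, CCDC85B -0.57, CSRNP1 -0.56, SRSF5 -0.56, GADD45A -0.56, TNS4 -0.42, NRIP1 -0.39 and FOSL1 -0.34. Without the block 1 gene passed by edgeR, DUSP2 at -1.25, against 12 by DESeq2 and 50 by edgeR without a filter on low counts. AC121338.2 had at most 3 counts in each HT+RT library, so its fitted value depends on the prior count of the fit and is not a size. MT-TT, a mitochondrial tRNA gene, was below 1 CPM in the controls.

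The radiation effect in heated spheroids differed between SAS (10 Gy) and FaDu (7 Gy) in 20 genes, by an interaction term with the replicate number as a block within each line. Log2 differences, SAS minus FaDu, above 0 were UBE2D1 0.69, YOD1 0.51, LTO1 0.45, NOTCH1 0.39, IER2 0.38, PLOD2 0.37, YTHDC1 0.36 and IER5 0.31. Those below 0 were KLF6 -0.93, AC005841.1 -0.80, HES1 -0.57, BAG3 -0.53, TENT5A -0.46, TOB2 -0.45, AL118506.1 -0.45, F2RL1 -0.41, DUSP5 -0.40, PRSS22 -0.40, FOSL2 -0.38 and TIPARP -0.33. Without the block 0 genes passed by edgeR, 0 by DESeq2 and 6 by edgeR without a filter on low counts. By edgeR with the filter, 509 had an unadjusted p under 0.05. Line and dose cannot be told apart. UBE2D1, PLOD2, NOTCH1 and LTO1 appear in both comparisons, which share the 6 heated SAS libraries, so the calls are not independent. No explanation of these differences was tested.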

How the results depend on the processing

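The heated SAS comparison altered 0 genes by edgeR without a block, with 673 at unadjusted p under 0.05, and 7 when the replicate block was added. Still without a block, it altered 5 by DESeq2, 7 without a filter on low counts, and 0 by limma-voom, with RLE size factors, with at least 10 counts in every library and with all 4 SAS groups in 1 fit. Leaving out 1 library gave 0 to 1 altered genes. At adjusted p under 0.05 alone there were 37 by DESeq2, 92 without a filter and 1 with all 4 SAS groups in 1 fit, 0 to 3 when 1 library was left out, and 139 when the block was added.

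With the replicate number as a block, altered genes numbered 3 by DESeq2, 13 without a filter and 2 to 9 when 1 replicate was left out, beside 7. Genes at adjusted p under 0.05 numbered 70 by DESeq2, 301 without a filter, 74 with all 4 SAS groups in 1 fit and 66 to 185 when 1 replicate was left out, beside 139. Of the 139 blocked calls, 70 passed by DESeq2, 112 by limma-voom, 127 with RLE size factors and 73 with all 4 groups. The cause of these differences was not tested.

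The test of heated against unheated effects altered 1 gene, and 3 by DESeq2, 9 without a filter and 5 with the block. Leaving out 1 heated library gave 1 each time, and no unheated library was left out. The test of SAS against FaDu altered 0 genes in every setting and leave-out run, with 509 at unadjusted p under 0.05 by edgeR. Radiation in unheated SAS altered 4 genes, and 10 by DESeq2, 30 without a filter, 25 with the block and 0 to 5 when 1 library was left out. In heated FaDu it altered 0, and 2 by DESeq2, 3 without a filter, 3 with the block and 0 to 1 in the leave-outs.

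Of the 145 named genes, 54 passed with the block that did not without it, 26 passed by DESeq2 and 44 without a filter; none changed direction while called. The aligner, annotation and strand setting are unknown, and reads of overlapping genes were not separated. Neither the dose nor the time from heating to collection can be checked in the counts.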
